A study of Rattus norvegicus with 8 samples.

Results

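The unfolded protein response and the Atf4 stress response were described here through 40 listed genes. They were chosen by name from the known sensors, transcription factors and targets of both responses. Earlier results of these data were known when the genes were chosen, so counts over them cannot show an excess over all genes. A gene was measured through a probe set whose only symbol in the platform annotation, updated by gene ID, was that gene, and where a gene had several the one with the highest mean over all arrays was taken. In this way 37 of the 40 genes were found among the 14506 genes of the array. Ern1, Edem1 and Sesn2 had no such probe set and are not analysed here.

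The material was perfused liver of male Wistar rats aged 6 to 10 weeks, and every sample is labelled with the time point 120 min. Perfusion is given as up to 180 min for every sample. The normoosmotic group (4 arrays) received buffer at 305 mosm/L and the hypoosmotic group (4 arrays) Krebs-Henseleit buffer at 225 mosm/L, the medium that makes liver cells swell. Both groups were isolated organs pumped with buffer, and both carry the same stated times. No sample of liver taken before perfusion was among those analysed, and the labels do not say whether the 4 samples of a group are separate animals. The p-values below thus rest on the variation among the arrays, part of which may be technical. Values are log2 expression as deposited, changes are hypoosmotic minus normoosmotic, and called genes are those with an adjusted p below 0.05 (limma, Benjamini-Hochberg over all 14506 genes).

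The endoplasmic reticulum (ER) folds secreted and membrane proteins, and its load is watched by 3 sensors in its membrane. Atf6 is cut to release a transcription factor that induces folding chaperones; Ern1, also called Ire1, splices the Xbp1 messenger RNA into the form that encodes an active factor; Eif2ak3, also called Perk, phosphorylates the initiation factor eIF2, which slows protein synthesis and favours translation of Atf4. Other eIF2 kinases, among them the amino acid sensor Eif2ak4, lead to Atf4 as well, so that its targets for amino acid supply also respond to amino acid shortage. Hepatocytes make most plasma proteins and carry a heavy ER load. The arrays measure messenger RNA, and neither the cutting of Atf6, nor the splicing of Xbp1, nor the phosphorylation of eIF2 was measured here. The 37 genes were placed in an Atf6 arm (15 measured of 15), an Xbp1 arm (6 of 8) and an Atf4 arm (16 of 17) by textbook assignment; many ER genes answer to more than 1 factor, so the borders are conventions.

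The samples read as liver. All 8 hepatocyte markers were bright, from a mean of 11.62 for Cyp2e1 to 13.05 for Alb, and none of the markers of hepatocytes (8 measured), macrophages (8), sinusoidal endothelium (6), stellate cells (8), bile duct cells (5) or lymphocytes (7) was called. The summed log2 level of the hepatocyte markers was 97.32 to 97.99 in normoosmotic and 96.56 to 97.68 in hypoosmotic arrays, and that of the macrophage markers 51.51 to 55.35 and 51.91 to 56.79. Array medians lay between 4.05 and 4.16. Clock genes differed within groups: a clock score (mean of Bmal1 and Npas2 minus mean of Dbp and Per3) read −2.81, 1.26, −3.38 and 1.49 in normoosmotic replicates 1 to 4 and 1.38, 1.09, −0.52 and −0.06 in hypoosmotic replicates 1 to 4. Values adjusted for this score are given beside each call that the adjustment ended and beside the larger changes that it moved.

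Few genes of the response were called. Herpud1, a membrane protein of ER-associated degradation, fell 1.59-fold (95% interval 1.29 to 1.96) in hypoosmotic livers and was the 1 gene of 37 that was called, against 1.98% of all genes (287 of 14506), so that the share among the 37 is near the background. Folding genes of the ER leaned the other way. Of 10 chaperones and cochaperones 9 had a change above 0, as did 58.6% of all genes, with 0 called. Sdf2l1 led with 0.54 (limma, adjusted p = 0.0549), followed by Hyou1 with 0.41 (adjusted p = 0.183). With the clock score as a covariate these changes were 0.44 (limma, adjusted p = 0.146) and 0.31 (adjusted p = 0.433). The lean of the folding genes was not tested. Of the 2 stress sensors measured, Atf6 and Eif2ak3 both had changes below 0, as did Atf4. In 4 of the 37 genes the values of the groups did not overlap, namely Herpud1, Atf4 and Eif2ak3 (lower) and Sdf2l1 (higher), where 8.27% of all genes were apart in this way, 5.05% lower and 3.21% higher. At an unadjusted p under 0.05 there were 7 genes, 2 higher and 5 lower, against 14.6% of all genes. In whole liver, fewer cells of a type and less RNA per cell cannot be told apart.

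**Figure D1:**
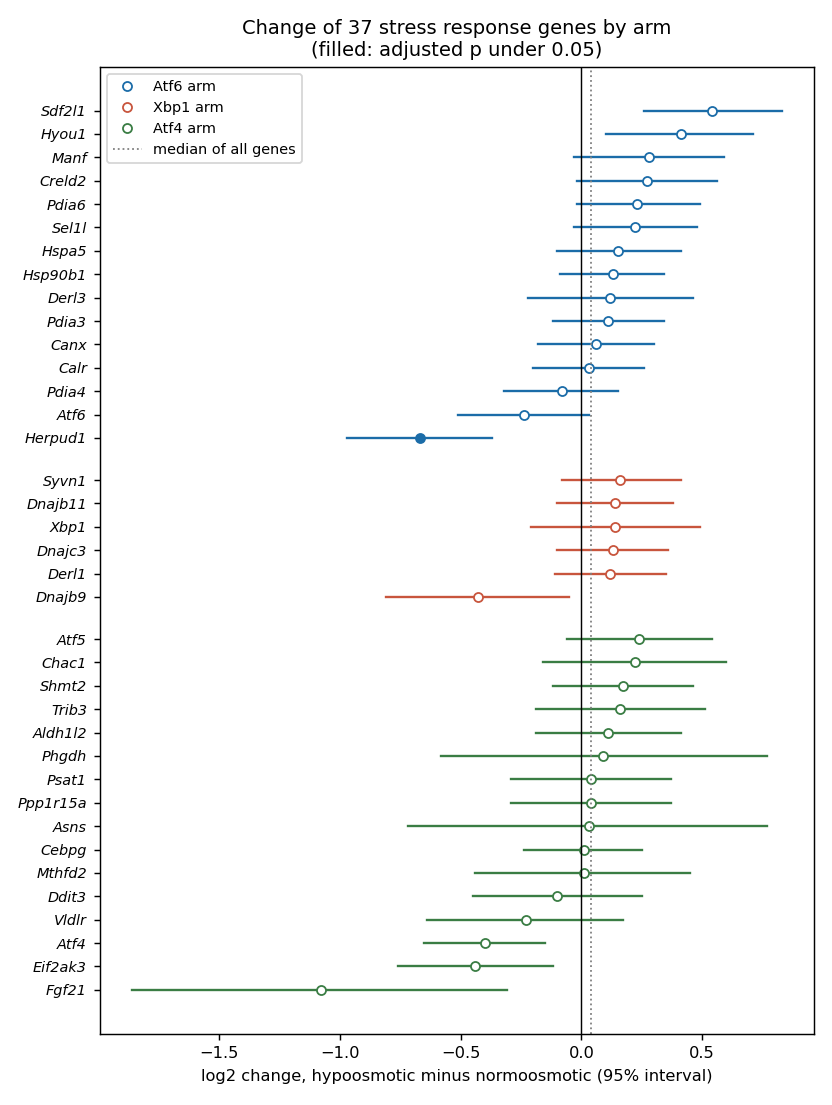
Log2 change (hypoosmotic minus normoosmotic, x axis) of the 37 measured genes with 95% intervals from limma, grouped by arm and ordered by change; filled points were called and the dotted line is the median of all genes, 0.04. Herpud1 at −0.67 is the filled point, 12 of 15 Atf6 arm genes lie above 0, and the widest intervals, those of Fgf21, Asns and Phgdh, are in the Atf4 arm.

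Compared by arm, the median change was 0.13 for the Atf6 arm, 0.14 for the Xbp1 arm and 0.03 for the Atf4 arm, beside 0.04 for all genes. Changes above 0 were seen in 12 of 15, 5 of 6 and 11 of 16 genes, where 58.6% of all genes were above 0. The called count was 1 (lower), 0 and 0. Expressed per array as the mean deviation of an arm's genes from their own means, the Atf6 arm read −0.09, 0.04, −0.16 and −0.01 in normoosmotic replicates 1 to 4 and 0.12, 0.05, −0.04 and 0.07 in hypoosmotic replicates 1 to 4. The Xbp1 arm read 0.11, −0.13, −0.09 and 0.02 against 0.05, −0.05, −0.01 and 0.10, and the Atf4 arm 0.23, −0.13, −0.07 and 0.12 against 0.11, −0.09, −0.17 and 0.01. In each arm the groups overlapped. As a mean over genes, the change was 0.10 for the Atf6 arm, 0.04 for the Xbp1 arm and −0.07 for the Atf4 arm. No test of a difference between arms was made.

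Among the sensors and transcription factors, 3 of 7 had a change above 0 and 4 below, with a median of −0.10. Eif2ak3, the Perk kinase, read 7.91, 7.25, 7.34 and 7.34 in normoosmotic replicates 1 to 4 and 7.09, 6.84, 7.09 and 7.06 in hypoosmotic replicates 1 to 4. All 4 hypoosmotic values lay below the lowest normoosmotic one, and normoosmotic replicate 1 stood above its group. The change was −0.44 ± 0.15 (SE; limma, adjusted p = 0.159), and −0.29 without that array (adjusted p = 0.337).

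Atf4, the factor that all eIF2 kinases converge on, read 8.95, 9.23, 9.31 and 9.37 against 8.77, 8.81, 8.83 and 8.86. The hypoosmotic values were tightly grouped and all below the normoosmotic ones, of which replicate 1 was the lowest. The change was −0.40 ± 0.12 (SE; 1.32-fold lower, 95% interval 1.11 to 1.57; adjusted p = 0.105) and was called in 0 of 17 alternative settings. Because Atf4 is controlled largely through translation, its messenger level is not a measure of its protein.

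Atf6 read 8.56, 8.21, 8.31 and 8.13 against 8.01, 7.98, 8.01 and 8.25. The highest hypoosmotic value, that of replicate 4, lay within the normoosmotic range, and the change of −0.24 had an interval of −0.51 to 0.03 (adjusted p = 0.41). Atf5, a factor under the same translational control as Atf4, read 7.58, 8.01, 8.21 and 8.14 against 8.18, 8.15, 8.30 and 8.26, with a change of 0.24 (−0.06 to 0.54; adjusted p = 0.485). Normoosmotic replicate 1 was the low array, and without it the change was 0.10 (adjusted p = 0.798).

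The remaining factors had changes with intervals on both sides of 0. Total Xbp1 messenger RNA, spliced and unspliced forms together, ranged from 9.75 to 10.56 in normoosmotic and from 10.15 to 10.42 in hypoosmotic arrays, with a change of 0.14 (−0.21 to 0.49). Ddit3, also called Chop, the factor linked to cell death under prolonged stress, ranged from 6.02 to 6.76 and from 6.16 to 6.55, with a change of −0.10 (−0.45 to 0.25), or −0.23 on adjustment for the clock score. Cebpg, a dimer partner of Atf4, ranged from 6.91 to 7.13 and from 6.87 to 7.16, with a change of 0.01 (−0.24 to 0.25). In each of the 3 the groups overlapped.

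**Figure D2:**
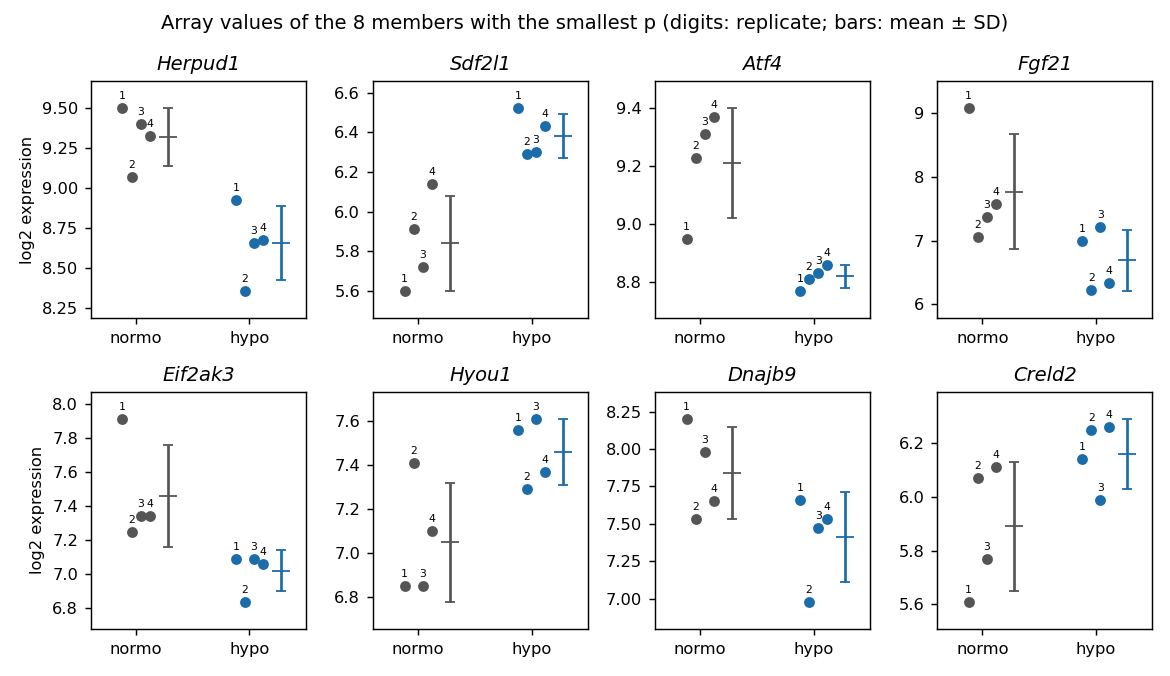
Log2 expression (y axis, a scale for each gene) in normoosmotic and hypoosmotic arrays for the 8 genes of the response with the smallest p; each point is 1 array with its replicate number, and bars are the group mean ± SD (n = 4). The groups do not overlap in Herpud1, Sdf2l1, Atf4 and Eif2ak3 and do in Fgf21, Hyou1, Dnajb9 and Creld2.

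The chaperones and cochaperones held the largest change toward higher values. Sdf2l1, an ER-resident partner of the Hsp70 cochaperone Dnajb11, read 5.60, 5.91, 5.72 and 6.14 in normoosmotic replicates 1 to 4 and 6.52, 6.29, 6.30 and 6.43 in hypoosmotic replicates 1 to 4. Every hypoosmotic value lay above every normoosmotic one. The change was 0.54 ± 0.13 (SE; 1.46-fold, 95% interval 1.20 to 1.77; limma, adjusted p = 0.0549), just short of the call, which it passed in 5 of 17 alternatives, among them quantile normalization (adjusted p = 0.029). Adjusted for the clock score, its change was 0.44 (adjusted p = 0.146).

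Hyou1, an ER chaperone that exchanges nucleotides on Hspa5, read 6.85, 7.41, 6.85 and 7.10 against 7.56, 7.29, 7.61 and 7.37. Normoosmotic replicate 2 lay within the hypoosmotic range and the other 3 below it. The change was 0.41 ± 0.14 (SE; adjusted p = 0.183), and 0.52 without normoosmotic replicate 2 (adjusted p = 0.0719). Manf, a secreted factor that binds Hspa5, read 7.24, 7.78, 7.37 and 7.21 against 7.78, 7.88, 7.56 and 7.51, with overlapping groups and a change of 0.28 (−0.03 to 0.59; adjusted p = 0.407).

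The abundant chaperones of the ER moved little. Hspa5, also called BiP, the Hsp70 of the ER and the usual readout of this response, read 10.97, 10.89, 10.93 and 10.96 against 11.22, 11.11, 10.81 and 11.22. Its highest 3 values were hypoosmotic, but so was its lowest, and the change was 0.15 with an interval of −0.10 to 0.41 (adjusted p = 0.623), that is, from 0.93-fold to 1.33-fold. Hsp90b1, the Hsp90 of the ER, had a change of 0.13 (−0.09 to 0.34), with ranges of 10.24 to 10.36 and 10.35 to 10.48. The lectin chaperones Calr and Canx, which hold glycoproteins until they are folded, had changes of 0.03 (−0.20 to 0.26) and 0.06 (−0.18 to 0.30). For these 4 genes the upper interval bounds lay at or below 0.41, so that a doubling of their messenger RNA lies outside the intervals.

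The J-domain cochaperones, which steer Hspa5, belong here to the Xbp1 arm and did not all lean one way. Dnajb9, also called ERdj4, a target of spliced Xbp1 that restrains Ern1, read 8.20, 7.53, 7.98 and 7.65 against 7.66, 6.98, 7.47 and 7.53. It was the 1 chaperone with a change below 0, at −0.43 ± 0.17 (SE; adjusted p = 0.264), and its groups overlapped. Without hypoosmotic replicate 2, the lowest array, its change was −0.29, and adjusted for the clock score it was also −0.29. Dnajb11 read 6.98, 7.22, 6.96 and 7.16 against 7.26, 7.15, 7.33 and 7.15, a change of 0.14 (−0.10 to 0.38). Dnajc3, an ER cochaperone known as an inhibitor of Perk, ranged from 8.74 to 9.0 and from 8.90 to 9.10, a change of 0.13 (−0.10 to 0.36).

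Of the disulfide isomerases, which form and shuffle disulfide bonds, 0 were called. Pdia6 read 9.46, 9.49, 9.21 and 9.52 against 9.71, 9.75, 9.45 and 9.71, with 3 of 4 hypoosmotic values above all normoosmotic ones and a change of 0.23 (−0.02 to 0.49; adjusted p = 0.395). Creld2, an ER protein induced by this response, read 5.61, 6.07, 5.77 and 6.11 against 6.14, 6.25, 5.99 and 6.26, with a change of 0.27 (−0.02 to 0.56; adjusted p = 0.385) that was 0.16 on adjustment for the clock score. Pdia3, the partner of Calr and Canx, had a change of 0.11 (−0.12 to 0.34), and Pdia4 one of −0.08 (−0.32 to 0.15).

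ER-associated degradation, which pulls misfolded proteins back to the cytosol for the proteasome, held the 1 called gene beside 4 members with changes between 0.12 and 0.22. Herpud1 (probe set 10809328), which helps to assemble the ubiquitin ligase complex in the ER membrane, read 9.50, 9.07, 9.40 and 9.33 in normoosmotic replicates 1 to 4 and 8.93, 8.36, 8.66 and 8.68 in hypoosmotic replicates 1 to 4. All hypoosmotic values were below all normoosmotic ones, and hypoosmotic replicate 2 was the lowest. Its mean went from 9.32 ± 0.18 to 8.66 ± 0.23 (SD, n = 4 each), a change of −0.67 ± 0.14 (SE; limma, adjusted p = 0.0282). The call was lost without normoosmotic replicate 1 (adjusted p = 0.0906), 3 (0.0858) or 4 (0.0551), without hypoosmotic replicate 2 (0.0981) or 3 (0.0677), and on adjustment for the clock score (−0.61, adjusted p = 0.0911). The change itself stayed between −0.76 and −0.57 in all 17 alternatives. The part of the clock difference between arrays in this result was not tested beyond that covariate.

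The other members of this degradation pathway had changes on the other side of 0. Sel1l, the scaffold of the ubiquitin ligase Syvn1, read 7.33, 7.43, 7.27 and 7.51 against 7.54, 7.45, 7.61 and 7.83, a change of 0.22 (−0.03 to 0.48; adjusted p = 0.421). Syvn1, also called Hrd1, read 6.48, 6.39, 6.50 and 6.70 against 6.62, 6.70, 6.57 and 6.83, a change of 0.16 (−0.08 to 0.41; adjusted p = 0.576). The derlins, channel proteins of the same complex, had changes of 0.12 (−0.11 to 0.35) for Derl1 and 0.12 (−0.22 to 0.46) for Derl3. Derl3 read between 2.73 and 3.49, below the median of every array, where values can be background. Each of the 4 overlapped between groups.

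The known control elements of the response were looked for in the promoters of the genes, because Herpud1 was below 0 where 12 of the 14 measured Atf6 arm genes other than Atf6 itself were above it; Pdia4, at −0.08, was the other below 0. RefSeq promoter windows of the GRCr8 assembly, from 250 bases before to 50 bases after the annotated start, were found for 33 of the 40 genes by symbol. The searches covered both strands. The ER stress response element (ERSE), bound by Atf6 with NF-Y, was searched as CCAAT and CCACG separated by 9 bases. Its shorter form ERSE-II, bound by Atf6 and Xbp1, was searched as ATTGG and CCACG separated by 1 base. The core of the unfolded protein response element was searched as TGACGTGG, and the C/EBP-ATF response element (CARE), bound by Atf4 dimers, as TGATG and AA separated by 1 base. An ERSE stood in 22 of all 33469 windows (0.0657%) and an ERSE-II in 17 (0.0508%), the unfolded protein core in 0.595% and a CARE in 3.98%.

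Of the 12 windows of the Atf6 arm, 6 held an ERSE and 2 an ERSE-II; of the 6 windows of the Xbp1 arm, 2 and 1. Of the 16 windows of the Atf4 arm 0 held either, and 3 held a CARE, namely those of Chac1, Fgf21 and Trib3. Herpud1 had an ERSE-II and a CARE and was the 1 gene of the 33 with elements of both kinds. Hyou1, with 2 windows, had 2 matches to ERSE-II in its first, 1 of them overlapping the unfolded protein core. These genes entered the lists as known targets, so the elements describe the lists and are no finding about them. A match is a run of letters and not a measured binding site.

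The stretches with the matches are shown for Herpud1, the called gene, for Hyou1 and Dnajb11, which share its ERSE-II and did not fall, for Hspa5 as the standard ERSE, and for Fgf21, which shares the CARE. Each runs 5′ to 3′ on the strand of the gene, from 20 bases before the first match to 20 after the last, with the matched letters in capitals; an element on the other strand appears as its reverse complement.

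Herpud1, GRCr8 chr19:10614801-10614911, minus strand, CARE then ERSE-II: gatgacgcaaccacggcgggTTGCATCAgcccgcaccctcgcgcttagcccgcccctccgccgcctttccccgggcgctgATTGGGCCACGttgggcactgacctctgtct

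Hyou1, GRCr8 chr8:53602671-53602824, plus strand, the unfolded protein core overlapping an ERSE-II, then an ERSE-II: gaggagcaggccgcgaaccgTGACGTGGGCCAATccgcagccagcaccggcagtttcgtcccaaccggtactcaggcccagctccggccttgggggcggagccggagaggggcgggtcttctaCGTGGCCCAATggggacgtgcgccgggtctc

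Dnajb11, GRCr8 chr11:91672780-91672830, minus strand, ERSE-II: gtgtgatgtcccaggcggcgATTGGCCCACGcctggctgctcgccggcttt

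Hspa5, GRCr8 chr3:38452953-38453011, plus strand, ERSE: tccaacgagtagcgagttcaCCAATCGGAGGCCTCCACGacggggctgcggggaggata

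Fgf21, GRCr8 chr1:105221492-105221539, minus strand, CARE: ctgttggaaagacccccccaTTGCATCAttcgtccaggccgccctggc

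Set beside the expression values, 11 measured genes had an ERSE or ERSE-II: Calr, Canx, Creld2, Derl3, Dnajb11, Dnajc3, Herpud1, Hsp90b1, Hspa5, Hyou1 and Xbp1. All but Herpud1 had changes between 0.03 and 0.41, with 0 called, and Herpud1 had −0.67. The median of all 11 was 0.13. The other 20 measured genes with a window had changes between −1.08 and 0.54, with a median of 0.03. All 11 belong to the Atf6 or Xbp1 arm, and most of the other 20 to the Atf4 arm. This split thus largely repeats the split by arm. The 4 genes with a CARE had changes of −1.08 for Fgf21, −0.67 for Herpud1, 0.16 for Trib3 and 0.22 for Chac1. Hyou1 and Dnajb11, which share the ERSE-II of Herpud1, had changes of 0.41 and 0.14, while genes that share its CARE lay on either side of 0. Whether the elements bear on these changes was not tested.

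In the Atf4 arm the largest change belonged to Fgf21, a hormone that the liver releases under starvation and stress. Fgf21 read 9.08, 7.06, 7.37 and 7.58 in normoosmotic replicates 1 to 4 and 6.99, 6.22, 7.21 and 6.34 in hypoosmotic replicates 1 to 4. Normoosmotic replicate 1 was the highest array by far, and hypoosmotic replicate 3 lay above normoosmotic replicate 2. The change was −1.08 ± 0.36 (SE; 2.12-fold lower, 95% interval 1.24 to 3.62; limma, adjusted p = 0.156). Without normoosmotic replicate 1 it was −0.65 (adjusted p = 0.25), and on adjustment for the clock score −0.86 (adjusted p = 0.361). Vldlr, a lipoprotein receptor induced through Atf4, was also highest in normoosmotic replicate 1, at 4.13, and its change was −0.23 (−0.64 to 0.17). In the other 7 arrays Vldlr read between 3.06 and 3.60, below the array medians, where values can be background, a limit that holds for its SD as well.

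The feedback genes of the arm had changes between 0.04 and 0.22, with intervals on both sides of 0. Ppp1r15a, also called Gadd34, which directs the phosphatase that restores eIF2, ranged from 7.21 to 8.01 and from 7.56 to 7.72, a change of 0.04 (−0.29 to 0.37). Trib3, a pseudokinase that curbs Atf4 and Ddit3, had a change of 0.16 (−0.19 to 0.51), and Chac1, which degrades glutathione, one of 0.22 (−0.16 to 0.60). In normoosmotic replicate 1 both Trib3, at 6.61, and Ppp1r15a, at 7.21, had their lowest value of all 8 arrays, while Fgf21, Vldlr and Eif2ak3 had their highest there.

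Several of the enzymes that Atf4 induces for amino acid and folate metabolism differed widely between arrays of the same group. Asns, which makes asparagine, read 7.29, 5.80, 6.14 and 6.59 in normoosmotic replicates 1 to 4 and 7.0, 6.65, 5.40 and 6.87 in hypoosmotic replicates 1 to 4. The groups covered much the same range, and the change was 0.03 ± 0.34 (SE). Phgdh, the first enzyme of serine synthesis, read 6.27, 5.24, 5.31 and 6.17 against 6.65, 6.11, 5.09 and 5.51, with a change of 0.09 ± 0.31. Asns and Phgdh were high together in normoosmotic replicate 1 and hypoosmotic replicate 1, and hypoosmotic replicate 3 was the lowest of the 8 arrays in both.

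Psat1, the next enzyme of serine synthesis, followed the same order at its ends. It was highest in normoosmotic replicate 1 at 7.62 and hypoosmotic replicate 1 at 7.52 and lowest in hypoosmotic replicate 3 at 6.98. Its change was 0.04 (−0.29 to 0.37), and its other probe set, at 3.85 to 4.94, had one of −0.13. Mthfd2, a mitochondrial folate enzyme, read 6.74, 6.09, 5.84 and 5.85 against 6.57, 6.12, 6.09 and 5.76, again with replicate 1 of each group on top, and its 2 probe sets had changes of 0.01 and 0.03. Shmt2, which moves the serine carbon into folate, had a change of 0.17 (−0.12 to 0.46), or 0.08 on adjustment for the clock score, and Aldh1l2, a mitochondrial folate dehydrogenase, one of 0.11 (−0.19 to 0.41). As a set, these 6 enzymes lay 0.33 above their means in normoosmotic replicate 1 and 0.36 in hypoosmotic replicate 1, and 0.40 below in hypoosmotic replicate 3.

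**Figure D3:**
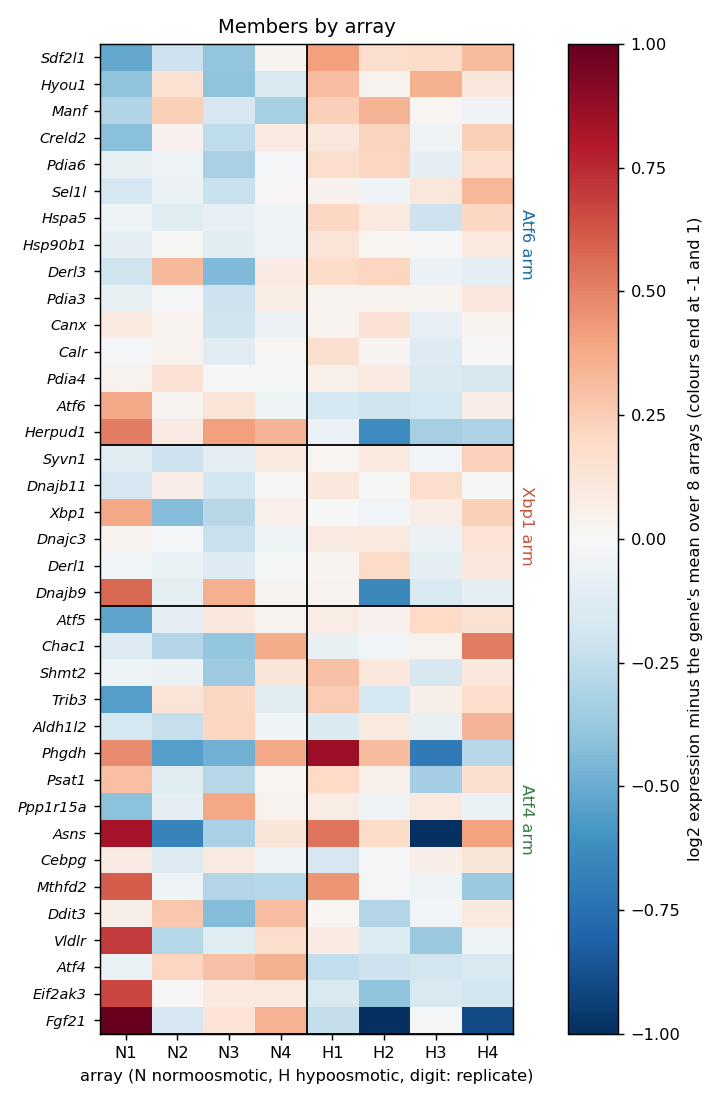
Deviation of each gene's log2 expression from its own mean over the 8 arrays (colour, ending at −1 and 1), with genes in rows by arm and arrays in columns, 4 normoosmotic (N) and 4 hypoosmotic (H). Herpud1 lies above its mean in all 4 normoosmotic and below it in all 4 hypoosmotic arrays, while Asns, Phgdh and Mthfd2 differ between arrays of the same group.

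The spread between replicates differed between the arms. The SD within groups had a median of 0.14 log2 units over the Atf6 arm and 0.12 over the Xbp1 arm, against 0.26 over the Atf4 arm and 0.19 over all genes. Of the 16 Atf4 arm genes 14 were above the median SD of all genes, as were 5 of 15 in the Atf6 arm and 2 of 6 in the Xbp1 arm. In the 10% of all genes with the largest SD were 6 genes of the Atf4 arm and 0 of the others: Fgf21 with an SD of 0.72, Asns with 0.69, Phgdh with 0.62, Mthfd2 with 0.38, Vldlr with 0.33 and Chac1 with 0.31. Hsp90b1 had the smallest SD of all 37, at 0.06, and stood at percentile 0.6 of all genes. This is a description with no test, and the SD of a gene also depends on its signal level.

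**Figure D4:**
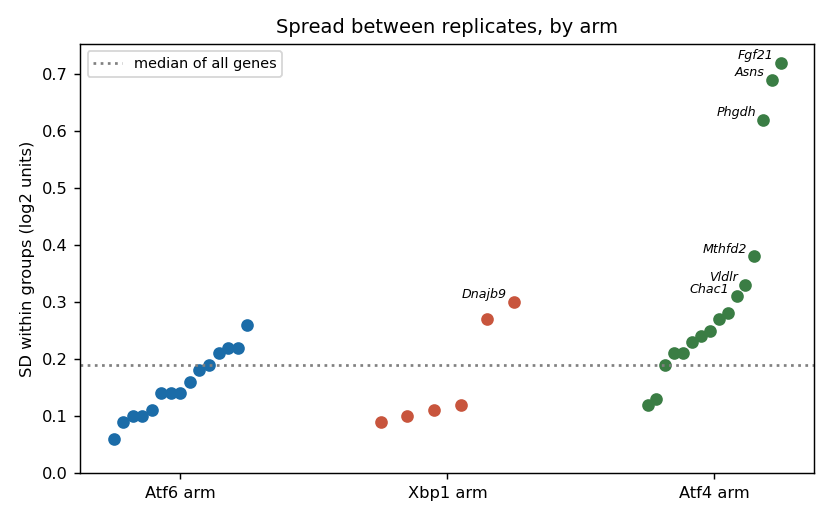
SD within groups (y axis, log2 units, pooled over both groups of 4 arrays) of each gene, by arm and in rising order within an arm; the dotted line is the median of all 14506 genes, 0.19. Fgf21, Asns and Phgdh lie above 0.6, and no Atf6 arm gene lies above 0.26.

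Single arrays took unequal shares of the extremes. Normoosmotic replicate 1 was the highest of the 8 arrays in 10 of the 37 genes, 6 of them in the Atf4 arm, where it was highest in 11% of all genes. Normoosmotic replicate 3 was the lowest in 13 of 37, of which 7 were in the Atf6 arm and 3 each in the other arms, where it was lowest in 12.7% of all genes. Hypoosmotic replicate 4 was the highest in 9 of 37, against 14.1% of all genes. Hypoosmotic replicate 1 was the highest in 7, against 11.5%. Normoosmotic replicate 3 was the highest in 1 of 37, against 13% of all genes. Normoosmotic replicates 1 and 3 are the normoosmotic arrays with a clock score below 0. In the Atf6 arm these arrays were the lowest normoosmotic ones in Sdf2l1, Hyou1, Creld2, Pdia3, Pdia6, Sel1l, Calr, Hsp90b1 and Derl3. They were the highest in Herpud1 and Atf6, and neither in Hspa5, Manf, Canx and Pdia4. In the Xbp1 arm they were the lowest in Dnajb11, the highest in Dnajb9 and neither in the other genes. The part of the clock difference in these gaps was not tested; adjusted for the score, Hyou1 had a change of 0.31 (adjusted p = 0.433) and Eif2ak3 one of −0.36 (adjusted p = 0.38).

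Further genes of the pathway were read from 9 lists by role, 118 entries in all, of which 108 genes were measured. Of these 3 were called higher, where 0.558% of all genes were, and 3 lower, where 1.42% were. Because the lists were written with earlier results of these data known, these counts cannot show an excess over all genes. Among the factors beside Atf6, Creb3l2, a membrane-bound relative of Atf6, was called as the 1 gene of 7 and fell by 0.49 ± 0.11 (SE; limma, adjusted p = 0.0444). It read 7.16, 7.16, 7.44 and 7.24 in normoosmotic replicates 1 to 4 and 6.76, 6.60, 6.89 and 6.77 in hypoosmotic replicates 1 to 4, with no overlap. In the list of ER oxidation, folding and glycan control, Ganab, the glucosidase subunit that trims new glycans, rose by 0.44 ± 0.10 (adjusted p = 0.0465) and was the 1 called gene of 15, of which 12 had a change above 0. It read 7.04, 7.24, 7.08 and 7.12 against 7.50, 7.53, 7.59 and 7.62, also with no overlap. Leaving out an array, whichever of the 8 it was, ended both calls (adjusted p at most 0.15 for Creb3l2 and 0.143 for Ganab), while the changes stayed between −0.54 and −0.43 and between 0.41 and 0.48. Adjusted for the clock score neither was called, with −0.45 for Creb3l2 (limma, adjusted p = 0.135) and 0.42 for Ganab (adjusted p = 0.136).

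Of 9 further degradation genes and 15 genes of ER translocation and export 0 were called, with the smallest p at Edem2 (0.30, adjusted p = 0.206) and Kdelr3 (−0.27, adjusted p = 0.504). The machinery around eIF2 leaned lower, with 12 of 14 measured genes below 0, where 5999 of all 14506 genes were. Its median change was −0.12, 0 were called, and the lean was not tested. Eif2b1, a subunit of the exchange factor of eIF2, had the smallest p there, with a change of −0.42 (adjusted p = 0.139). Of 13 cytosolic aminoacyl-tRNA synthetases, many of them Atf4 targets, 0 were called and 7 had a change below 0; Tars1 came closest, with −0.52 and groups that did not overlap (limma, adjusted p = 0.0629), and was called in 3 of 17 alternatives, with a lowest adjusted p of 0.0427.

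Further genes listed with the responses of Atf4 and Ddit3 moved in both directions. Slc38a2, an amino acid transporter, was the 1 called gene of 9 amino acid transporters and fell by 1.31 ± 0.17 (SE; limma, adjusted p = 0.00264). It read 10.45, 9.70, 10.41 and 9.99 in normoosmotic replicates 1 to 4 and 8.90, 8.63, 8.71 and 9.07 in hypoosmotic replicates 1 to 4, with a wide gap between the groups, and was called in all 17 alternatives. Of 15 other stress-induced targets, Gdf15, a stress hormone, fell by 1.02 ± 0.24 (adjusted p = 0.0444), while Ddit4, an inhibitor of the growth kinase mTORC1, rose by 0.66 ± 0.13 (adjusted p = 0.0213) and Txnip, which limits glucose uptake, by 0.87 ± 0.20 (adjusted p = 0.0432). Ddit4 read 4.69, 5.04, 4.58 and 4.86 against 5.63, 5.26, 5.42 and 5.51, with no overlap, and was called in 12 of 17 alternatives. Txnip read 5.39, 5.39, 6.22 and 5.75 against 6.57, 6.90, 6.63 and 6.12, where hypoosmotic replicate 4 lay below normoosmotic replicate 3, and was called in 8 of 17. Gdf15, called in 6 of 17, read 6.95, 6.79, 6.65 and 7.35 against 5.34, 5.76, 6.67 and 5.89, with hypoosmotic replicate 3 inside the normoosmotic range. Without that array its adjusted p was 0.0117, and across the other arrays left out in turn it went up to 0.143. Adjusted for the clock score, the calls of all 3 ended while the changes were 0.58 for Ddit4 (limma, adjusted p = 0.0652), 0.92 for Txnip (0.0771) and −1.02 for Gdf15 (0.107); Slc38a2 stayed called, at −1.15 (0.00495). Of 11 other enzymes of amino acid synthesis and folate metabolism 0 were called. An unadjusted p under 0.05 was seen for 5 of them, all with changes above 0, where 957 of all 14506 genes were higher. Cbs, the enzyme that joins serine and homocysteine, led with 0.44 (limma, adjusted p = 0.139).

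**Figure D5:**
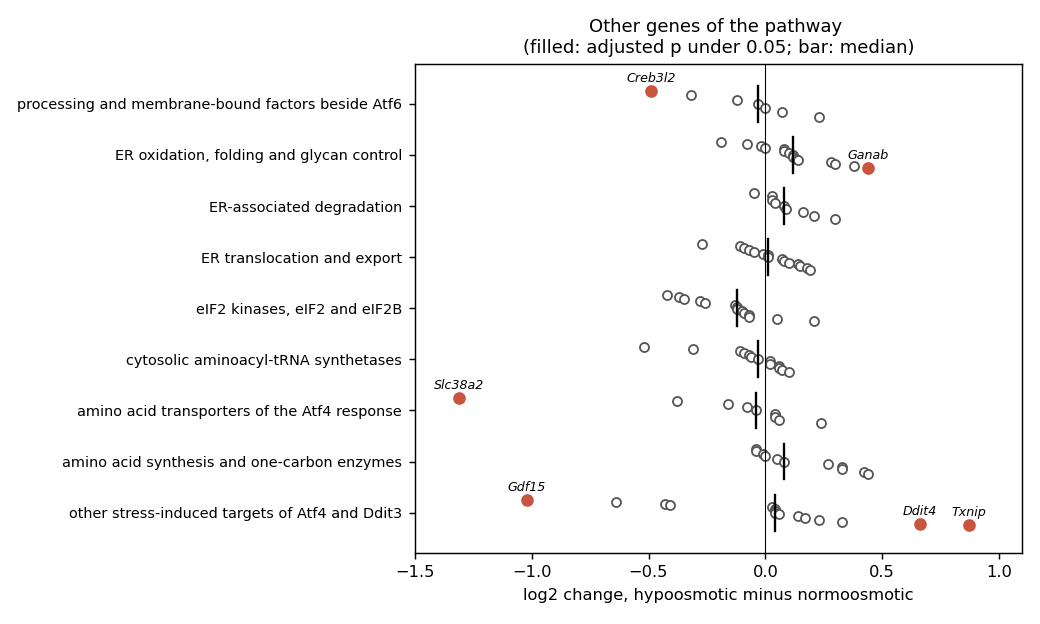
Log2 change (hypoosmotic minus normoosmotic, x axis) of the further pathway genes in 9 lists; each point is a gene, filled points were called and bars are list medians. The 6 called genes are Creb3l2, Ganab, Slc38a2, Gdf15, Ddit4 and Txnip. Around eIF2, 12 of 14 genes lie below 0, as do 5999 of all 14506 genes.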

How the data were processed

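Affymetrix arrays of total RNA, labelled with biotin per the labels' protocols, gave the authors' deposited log2 expression values for 27596 probe sets on 8 arrays, 4 normoosmotic and 4 hypoosmotic. The submitters' processing notes name Transcriptome Analysis Console version 4.0; how probe sets were summarised and normalized is not stated in those notes or in the labels, and the log2 scale was read from the range of the values. Of the probe sets, 15310 had 1 gene symbol, which gave 14506 genes. Symbols were updated through gene IDs of RefSeq, GRCr8.

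Groups were compared with limma 3.58.1 in R 4.3.3 (lmFit, eBayes, group as the only term, two-sided), with Benjamini-Hochberg adjustment across 14506 genes; the fit was tested on simulated data. For a single gene, exact permutation over 8 arrays cannot give a two-sided p below 0.0286, reached by 4 of the 37. No low values were filtered; a filter on the dimmest 25% keeps 36 of the 37 genes. Array values have no read depth, and 4 arrays per group limit the precision. Alternatives were each array left out, the clock score as covariate, that filter, array medians subtracted, quantile normalization, all probe sets or their mean per gene, a replicate block, array weights, and a prior both trended and robust.

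All 40 genes are named; the 16 with the smallest p are given in every array. Of the other lists every called gene and the gene with the smallest p of each list are named. Members, arms and lists were chosen with earlier results of these data known. Promoter searches used RefSeq windows.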

Additional observations from a re-analysis of the deposited data

Results flagged for a closer look

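In 5 of 96 groups of 4 arrays, from the 37 genes and 11 further named genes, 1 array stood apart from the other 3 by more than Dixon's 95% critical share of the group's range, where chance gives about 1 in 20. Eif2ak3 was flagged in both groups: normoosmotic replicate 1 read 7.91 with the next value at 7.34, and hypoosmotic replicate 2 read 6.84 with the next at 7.06. Pdia6 read 9.45 in hypoosmotic replicate 3 with the next at 9.71. In hypoosmotic replicate 4 Atf6 read 8.25 with the next at 8.01, and Pdia3 read 10.46 with the next at 10.38.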

How the results depend on the processing

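The count of called genes of the response, 1 of 37, was 2 at an adjusted p under 0.10, with array weights, under the prior that was trended and robust, after quantile normalization and with the dimmest 25% of genes left out, each time Herpud1 and Sdf2l1. It was 0 with the clock score as a covariate and between 0 and 1 with each array left out, where the 1 without normoosmotic replicate 4 was Sdf2l1. All genes called, 287, became 92 with the clock covariate and 81 to 365 with an array left out, and the 6 further pathway genes became 1 with the clock covariate and 1 to 3 with an array left out. Whether the replicate numbers pair the samples is not known. Correlations of same-numbered deviations ran from 0.028 to 0.173, above 0.1 in 1 of 4 pairs. Those of other pairs ran from −0.302 to 0.206, and not every array correlated best with its own number. Correlations this weak cannot show that same-numbered samples were unrelated. As a block the replicate numbers gave 256 genes, 1 gene of the response and 3 further pathway genes.

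The arm medians stayed at 0.083 to 0.17 (Atf6), 0.086 to 0.17 (Xbp1; 0.044 as a mean) and −0.075 to 0.086 (Atf4), so the Atf4 arm has no settled sign. Target genes alone, a choice made after seeing the data, gave 0.14, 0.13 and 0.04. Genes with changes near 0 turned sign: after subtraction of array medians Calr (−0.01), Ppp1r15a (−0.0025), Psat1 (−0.005), Asns (−0.017), Cebpg (−0.037) and Mthfd2 (−0.037); with the clock covariate Derl3 (−0.045), Calr (−0.0096) and Phgdh (−0.015); with the mean over probe sets Psat1 (−0.046); with array weights Cebpg (−0.024). With an array left out, signs turned within −0.0092 to 0.24 for Derl3, −0.015 to 0.082 for Calr, −0.18 to 0.34 for Phgdh, −0.091 to 0.18 for Ppp1r15a, −0.049 to 0.16 for Psat1, −0.19 to 0.39 for Asns, −0.037 to 0.063 for Cebpg and −0.14 to 0.21 for Mthfd2.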
